A study of Mus musculus with 3 samples.

Results

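The cells described here carried the transcripts of hair follicle stem cells and of the outer root sheath, the layer of follicle keratinocytes that runs from the bulge down to the bulb. They were selected on their own counts. A member was a barcode with at least 3 of the 5 genes Lhx2, Sox9, Tbx1, Shisa2 and Sfrp1 detected and at least 10 unique molecular identifiers (UMIs, counts of single captured RNA molecules) of Krt5, Krt14 and Krt17 together. Members also had no Msx2 UMI, under 20 of Krt1 and Krt10, under 5 of Krt79 and Cst6, and under 10 of Col1a1, Col3a1 and Dcn. Of 23292 barcodes kept after a filter of at least 800 UMIs, at least 300 genes and at most 20% mitochondrial UMIs, 589 were members, 120 in the control library and 469 in the metformin library.

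Hair follicles renew themselves in cycles. Quiescent stem cells rest in the bulge under BMP signals and are woken by Wnt, hedgehog and FGF signals from the hair germ and dermal papilla, after which their progeny grow down as the outer root sheath around the new hair. Lhx2, Sox9 and Tbx1 are transcription factors of this compartment, whereas Sfrp1 and Shisa2 encode inhibitors of Wnt signalling, Shisa2 acting within the cell.

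The series studied hair growth in skin of C57BL/6 mice at post natal week 7. It held 1 library for each agent, namely control, Shi-Bi-Man (a natural product) and metformin (a biguanide drug that lowers blood glucose), and the labels give neither dose, route, skin site nor number of mice. Count matrices were analysed for control and metformin, and expression in the Shi-Bi-Man library was not analysed here. The control library held 12108 barcodes and 71345558 UMIs, and the metformin library 12092 barcodes and 92341365 UMIs. With 1 library per agent there was no replicate check, so no test between agents was made, and the agent cannot be told apart from the mouse, the skin site, the hair cycle stage or the library. Each interval given is at 95% and reflects counting error alone.

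Members made up 1.04% of the kept barcodes in control (exact binomial interval 0.862% to 1.24%) and 3.996% in metformin (3.65% to 4.37%). Over the keratin-rich barcodes alone, those with at least 10 UMIs of the basal keratins, the shares were 3.23% (2.69% to 3.85%) and 7.90% (7.22% to 8.61%). The metformin share was the higher on both denominators. These shares follow from the rule and from how many cells of each type entered the suspension, and they are given as a description. Msx2 is a gene of the hair matrix that feeds the growing shaft. Keratin-rich barcodes with an Msx2 UMI and within the fibroblast limit differed in the same direction between the libraries. They numbered 140 in control (3.77% of keratin-rich barcodes) and 641 in metformin (10.8%).

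Members of both libraries were of like depth, with a median of 6119 UMIs and 1992.5 genes in control and of 6775 UMIs and 2294 genes in metformin. The median mitochondrial share was 2.20% in control and 2.21% in metformin. They differed in how far they passed the rule. In control, 70 members had 3 of the 5 genes, 38 had 4 and 12 had all 5, whereas in metformin 112 had 3, 188 had 4 and 169 had all 5. Just outside the rule, 109 control and 171 metformin barcodes had 2 of the 5 genes. Their Lgr5 level was 28.5 counts per 1000000 UMIs (CPM) in the control library and 22.2 CPM in the metformin library, beside 64.7 and 75.04 CPM in members with 3 genes. Barcodes outside the rule for an Msx2 UMI alone numbered 13 and 75, with Lgr5 at 113 and 79.1 CPM. A Scrublet doublet call fell on 1 control member (0.833%) and on 31 metformin members (6.61%). No member of control shared its barcode with the Shi-Bi-Man list and 1 shared it with metformin, while 2 members of metformin shared theirs with each of the other lists.

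Lgr5, the R-spondin receptor of the lower bulge, hair germ and lower sheath, was not part of the rule and served to check the label. Its gene lies at chromosome 10, 115450311 to 115587780, minus strand (GRCm38). Members held 85 Lgr5 UMIs in 47 of 120 control cells (87.9 CPM) and 325 UMIs in 183 of 469 metformin cells (85.9 CPM). These levels were 78.5 times in control and 88.3 times in metformin that of other basal-like cells, keratin-rich cells with at most 1 of the 5 genes under the same limits (1849 cells in control and 2950 in metformin). To compare detection at equal depth, cells were thinned to 3000 UMIs, which left out 19 control and 45 metformin members. Lgr5 was then detected in 20.8% of control members (13.4% to 30.01%) and 22.6% of metformin members (18.7% to 26.9%), against at most 0.735% of other basal-like cells or T cells of either library.

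Cd34, the surface marker of the mouse outer bulge, was detected in 27.5% of control members and 32.4% of metformin members. After thinning the shares were 15.8% (9.33% to 24.4%) and 17.9% (14.4% to 21.9%). Thinned other basal-like cells had Cd34 in 0.166% and 0.210%, but T cells, which should lack it, had it in 11.0% in control (6.31% to 17.5%) and 4.62% in metformin (2.02% to 8.91%). In control the intervals of members and T cells overlap at this depth, so a Cd34 UMI there is not read as expression cell by cell. The T cells are shallower, with medians of 2316.5 and 2303 UMIs, and only 136 and 173 of them reached 3000. As found, over all T cells, Cd34 was in 3.90% in control and 1.32% in metformin. The control T cells held 69 Cd34 UMIs in 24 of 616 cells, with up to 7 in 1 cell. The source of these UMIs was not tested. Tcf7l1, a repressor of Wnt target genes in the bulge, was 41.5 and 42.1 times as high in members as in other basal-like cells. Lgr5 and Tcf7l1 thus bore out the label in both libraries against other basal-like cells. Lgr5 did not set members apart from barcodes outside the rule for an Msx2 UMI alone (113 and 79.1 CPM). Nor did it for those outside the rule for fibroblast genes alone (92.0 and 78.3 CPM).

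**Figure D1:**
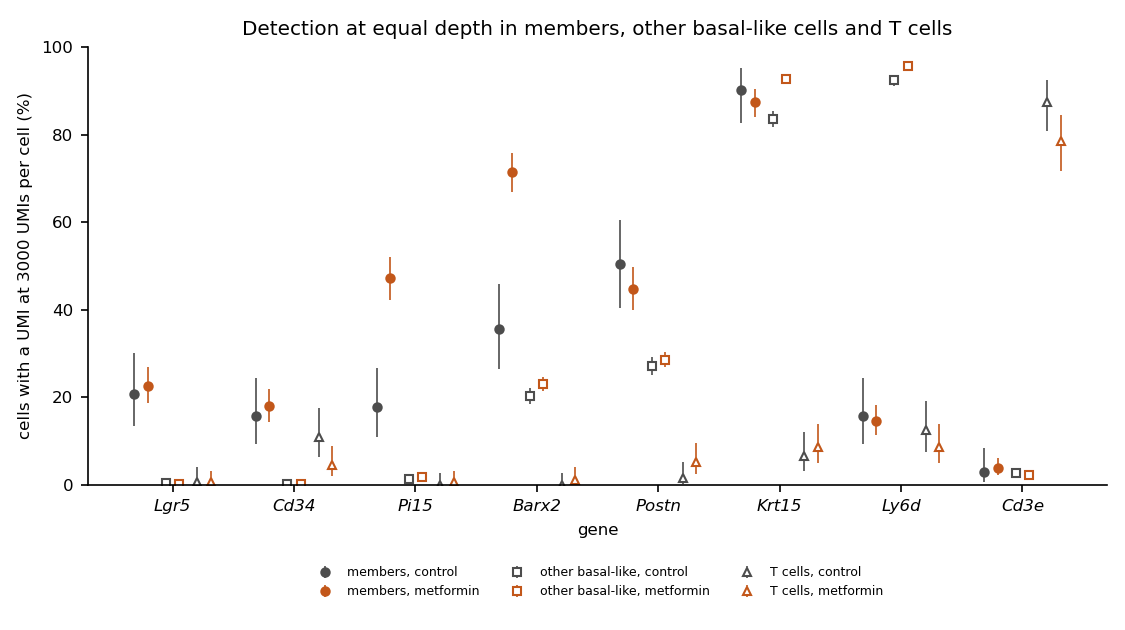
Share of cells with at least 1 UMI (vertical axis, %) of 8 genes after thinning each cell to 3000 UMIs, for members (filled circles), other basal-like cells (open squares) and T cells (open triangles) of the control (grey) and metformin (orange) libraries, with exact 95% binomial intervals. Lgr5 was in 20.8% and 22.6% of members and nearly absent from the other basal-like cells and T cells shown. Ly6d of interfollicular epidermis was in 15.8% and 14.6% of members against 92.5% and 95.6% of other basal-like cells. Barx2 and Pi15 differed between the libraries in members.

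Beyond the 5 genes, members differed from other basal-like cells of their own library across the transcriptome. Of 10049 genes compared, 1640 were at least 1.5-fold higher in members of both libraries (16.3%) and 796 were at least 1.5-fold lower in both (7.92%). Against the keratin-rich cells with an Msx2 UMI, 5476 genes were compared. Of these, 376 were at least 1.5-fold higher in members of both libraries and 227 lower. The genes and lists named below were compared with other basal-like cells only, so they are not shown to be particular to members among follicle cells. The genes were then ranked by their ratio over other basal-like cells in the library where that ratio was lower. Among the first 10, Mfap2, a protein of microfibrils, was at 169 CPM in control members and 99.9 CPM in metformin members, 41.4 and 38.3 times the level in other basal-like cells. Bgn, the proteoglycan biglycan, was 28.0 and 32.7 times as high. Alcam, an immunoglobulin-type adhesion protein, was 14.2 and 18.0 times as high, and Cd200, an immune-regulatory surface protein used to isolate bulge cells, 38.5 and 19.3 times. Krtap17-1, a hair keratin-associated protein, was 90.9 and 323 times as high, at 177 CPM in 36 control members and 50.2 CPM in 46 metformin members. The remaining genes chosen by this rule were Gm973, Ctgf, Abi3bp, Selenom and Tagln, the last with 94.3% of its control UMIs in 1 cell.

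The list counts against other basal-like cells stand beside 16.3% of all compared genes higher and 7.92% lower in members of both libraries. Of the 8 markers listed for interfollicular basal epidermis, 6 were at least 1.5-fold lower in members than in other basal-like cells of both libraries. Ly6d was the furthest, at 0.109 times the level in control and 0.102 times in metformin. Of 10 genes of MHC class I, through which cells show peptides to cytotoxic T cells, the transcripts of 8 were at least 1.5-fold below other basal-like cells in both libraries and those of 1 above. B2m, its light chain, stood at 473 CPM in control members and 412 CPM in metformin members, 0.326 and 0.311 times the level in other basal-like cells. Of the pathway lists, 6 of 8 hedgehog genes and 7 of 11 BMP and TGF-beta genes were higher in members of both libraries, whereas 6 of 9 Wnt ligands were lower. Wnt4 stood at 0.400 and 0.238 times and Wnt3 at 0.166 and 0.109 times the level of other basal-like cells. Complex I of the respiratory chain had 0 of 16 genes past 1.5-fold either way.

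Between the agents, 7917 genes had at least 50 UMIs in the members of both libraries together. Of these, 1158 were at least 1.5-fold higher in metformin members (14.6%) and 465 were at least 1.5-fold lower (5.87%), with a median log2 ratio of 0.11. The metformin library gave 3783624 UMIs from its members and the control library 966620, so a gene of the control members rests on fewer molecules and cells. Most of the highest ratios belonged to genes that were almost absent from control members and were held by a minority of metformin members.

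Gnmt, glycine N-methyltransferase, had the highest ratio. Its gene lies at chromosome 17, 46725664 to 46729168, minus strand. Control members held 13 UMIs in 8 cells (13.4 CPM) and metformin members 654 UMIs in 123 cells (173 CPM), a ratio of 12.9 (7.46 to 24.3). In other basal-like cells the ratio was 1.36, at 2.83 and 3.85 CPM. Cbs, cystathionine beta-synthase, which works in the same branch of methionine metabolism, had 14 UMIs in 12 control members and 226 UMIs in 120 metformin members, a ratio of 4.12 (2.41 to 7.67).

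Pthlh, the parathyroid hormone-related protein that keratinocytes secrete, lies at chromosome 6, 147252101 to 147264183, minus strand. It had 11 UMIs in 6 control members (11.4 CPM) and 476 UMIs in 92 metformin members (126 CPM), a ratio of 11.1 (6.12 to 22.3). Wfdc18, a small secreted protein of the whey acidic protein family at chromosome 11, had 9 UMIs in 3 control members and 393 UMIs in 84 metformin members, a ratio of 11.2 (5.82 to 24.6). Gjb2, the gap junction protein connexin 26, had 33 UMIs in 10 control members and 740 UMIs in 107 metformin members. Its ratio of 5.73 (4.04 to 8.39) was lower than the 7.12 in other basal-like cells. For each of these genes a single control cell held a large part of the few control UMIs, from 27.3% for Pthlh to 66.7% for Wfdc18. The ratios of Pthlh (5.04, thinned before the rule) and Wfdc18 (6.005, at most 3000 genes) were at their lowest under other choices of barcodes, and that of Cbs at its highest (9.76, at most 3000 genes).

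Acta2, the smooth muscle actin, was at 20.7 CPM in control members (20 UMIs in 4 cells) and at 170 CPM in metformin members (644 UMIs in 51 cells), a ratio of 8.23 (5.28 to 13.6). One control cell held 80.0% of the control UMIs. When barcodes were thinned before the rule was applied, the ratio was 0.959, and when barcodes over 3000 genes or 8% mitochondrial UMIs were left out, it was 48.3. The direction of Acta2 thus turned with the choice of cells. The other genes of the 10 highest, Mgst1 (5.05), Oplah (4.79), Nrep (4.45) and Fhl2 (4.10), were spread over 140 to 190 metformin members and 11 to 17 control members, and their ratios were above 1.5 under each of 10 alternatives, the lowest being 1.97 for Mgst1 after thinning.

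The lowest ratios included genes detected in most control members, among them Mt1 and Mt2, the metallothioneins that bind zinc and copper. Mt1 was found in 115 of 120 control members (8624 CPM) and in 360 of 469 metformin members (2029.5 CPM), a ratio of 0.235 (0.228 to 0.243). Mt2 was in 107 and 254 cells at 2526 and 636 CPM, a ratio of 0.252 (0.238 to 0.267). In other basal-like cells the ratio was 0.846 for Mt1 and 0.897 for Mt2. Under the 10 alternatives, Mt1 ranged from 0.160 to 0.351 and Mt2 from 0.164 to 0.417, the latter with no Msx2 limit. At equal depth Mt1 was detected in 96.0% of control and 68.4% of metformin members, against 52.2% and 47.4% of T cells. Mt2 was detected in 88.1% and 44.8% of members, against 29.4% and 23.1% of T cells.

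Gpha2, a subunit of the glycoprotein hormone thyrostimulin, had 80 UMIs in 33 control members and 40 UMIs in 33 metformin members, a ratio of 0.128 (0.0851 to 0.189). Abi3bp, an extracellular matrix protein, was at 354 CPM in control members (56 cells) and 54.4 CPM in metformin members (114 cells), a ratio of 0.154 (0.129 to 0.183). Ctgf, a matricellular target of mechanical and TGF-beta signals, was at 249 and 60.5 CPM, a ratio of 0.243 (0.202 to 0.292). After thinning, Abi3bp was at 0.337 and Gpha2 at 0.240, and with no Msx2 limit Cldn10 was at 0.416. Both Abi3bp and Ctgf were also lower in metformin among other basal-like cells, at 0.302 and 0.547. Cldn10 (0.138), Hs3st6 (0.144), Slc7a2 (0.196) and Slc38a4 (0.201) were also among the 10 lowest, the last pair being amino acid transporters.

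**Figure D2:**
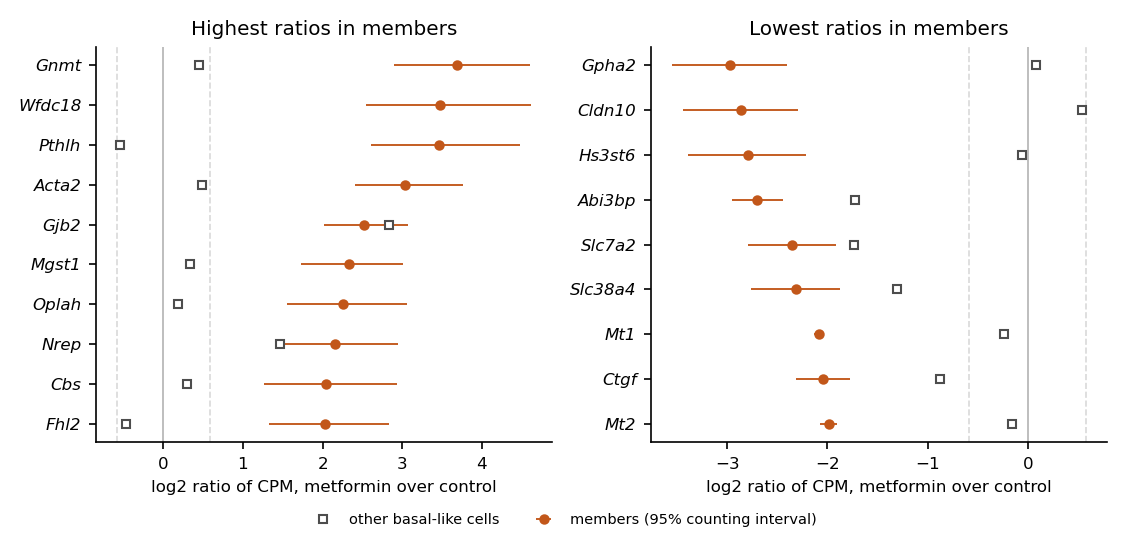
Log2 ratio of CPM, metformin over control, for the 10 genes with the highest ratios (left) and 9 of the 10 with the lowest (right) in members, with 95% counting intervals; open squares give other basal-like cells where they had at least 50 UMIs (Wfdc18 did not), and dashed lines mark 1.5-fold. Most squares lie between the dashed lines, the exceptions being Gjb2 and Nrep on the left and Abi3bp, Slc7a2, Slc38a4 and Ctgf on the right.

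Most genes of bulge identity differed by less than 1.5-fold between the agents. Of 13 listed bulge genes, 0 were at least 1.5-fold higher in metformin members and 2 were lower, Ctgf and Cd200, with a median log2 ratio of 0.19. The shares of all genes were 14.6% higher and 5.87% lower. Cd34 stood at 60.0 CPM in control members and 65.0 CPM in metformin members, a ratio of 1.08 (0.811 to 1.47), and Lgr5 had a ratio of 0.977 (0.767 to 1.26). Krt15, the keratin of bulge and basal cells, was at 3157 and 3610.3 CPM, a ratio of 1.14 (1.10 to 1.19). Postn, the matricellular protein periostin, was at 622 and 430 CPM (0.692, 0.630 to 0.761), and Cd200 at 163 and 92.5 CPM (0.566, 0.468 to 0.687). Among members thinned before the rule was applied, Postn was at 0.357 and Cd34 at 0.575.

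The rule genes are given for description, since the rule asks for them. Lhx2 had a ratio of 1.07 (0.935 to 1.22), while Sox9 (1.91, 1.68 to 2.17), Tbx1 (1.62, 1.35 to 1.95), Shisa2 (1.97, 1.60 to 2.45) and Sfrp1 (2.66, 2.33 to 3.05) were higher in metformin members. Of 16 hair follicle transcription factors with enough UMIs, 3 were higher and 4 lower, beside 14.6% and 5.87% of all genes, and Sox9 and Tbx1 of the rule are among the 3. Barx2, a homeobox factor, was detected in 65 control members (131 CPM) and 412 metformin members (462 CPM), a ratio of 3.52 (2.94 to 4.24), beside 1.16 in other basal-like cells. At equal depth Barx2 was found in 35.6% of control members (26.4% to 45.8%) and in 71.5% of metformin members (66.9% to 75.7%). Runx1, a factor that promotes stem cell activation, stood at 211 CPM in control members and 105 CPM in metformin members, a ratio of 0.497 (0.419 to 0.592), beside 0.578 in other basal-like cells. Klf5 (0.655), Trps1 (0.661) and Ovol1 (0.455) were the other lower members of the list, Ovol1 resting on 23 and 41 UMIs and standing at 1.16 after thinning. Nfatc1, which keeps bulge cells quiescent, had a ratio of 0.820 with an interval that includes 1 (0.578 to 1.18). Its ratio was below 1 under each of 10 alternatives and lowest, at 0.519, when barcodes were thinned before the rule.

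Secreted Wnt inhibitors with enough UMIs were Sfrp1, which the rule used and which is left aside here, Sostdc1, Dkk3 and Wif1. Sostdc1, which also binds BMPs, was in 42 control members (72.4 CPM) and in 317 metformin members (240 CPM), a ratio of 3.31 (2.60 to 4.29). Other basal-like cells had 49.2 and 44.3 CPM. Wif1, which binds Wnt ligands directly, went the other way, with 45 UMIs in 22 control members (46.6 CPM) and 20 UMIs in 12 metformin members (5.29 CPM), a ratio of 0.114 (0.0635 to 0.196), or 0.498 after thinning. Dkk3 had a ratio of 1.16 (0.860 to 1.59), and Dkk1 had 0 UMIs in members of both libraries.

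Of 5 genes of the Wnt response with enough UMIs, 1 was higher in metformin members and 2 were lower, beside 14.6% and 5.87% of all genes. Tcf7, a nuclear partner of beta-catenin, was in 34 control members (51.7 CPM) and 37 metformin members (12.7 CPM), a ratio of 0.245 (0.162 to 0.372). Znrf3, which removes Wnt receptors from the surface, had a ratio of 0.497 (0.274 to 0.932). Ccnd1, the cyclin of G1 phase, was at 144 and 247 CPM, a ratio of 1.72 (1.44 to 2.07). Below the minimum of 50 UMIs lay the response genes Lef1, with 19 UMIs in control and 26 in metformin, Axin2, with 17 and 30, and Nkd1, with 8 and 5. Their ratios were 0.350 (0.186 to 0.668), 0.451 (0.241 to 0.871) and 0.160 (0.0411 to 0.554). With the minimum lowered to 20 UMIs, the median log2 ratio of the list moved from 0.09 to -1.01.

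Of 10 BMP and TGF-beta genes measured, 5 were lower in metformin members and 1 was higher, beside 5.87% and 14.6% of all genes, at a median log2 ratio of -0.38. Of the ligands, Bmp2 was in 26 control members (46.6 CPM) and 34 metformin members (11.6 CPM), a ratio of 0.250 (0.161 to 0.387), and Bmp7 had a ratio of 0.371 (0.230 to 0.606). The receptor genes Bmpr1a (1.21, 0.912 to 1.62) and Bmpr2 (0.998, 0.796 to 1.26) had intervals that include 1. Among the Id genes, transcriptional targets of BMP signals, Id3 was in 108 of 120 control members (2021 CPM) and 369 of 469 metformin members (1013 CPM), a ratio of 0.501 (0.474 to 0.529). Id1 was at 506 and 321 CPM (0.634, 0.570 to 0.705), whereas Id2 was at 0.928 (0.812 to 1.06). Id4 stood against them, in 55 control members (93.1 CPM) and 327 metformin members (240 CPM), a ratio of 2.58 (2.08 to 3.24). Other basal-like cells had ratios of 1.45 for Id1, 1.14 for Id3 and 1.29 for Id4. The inhibitory Smad7 was at 0.561 (0.417 to 0.763) but at 1.25 when barcodes were thinned first.

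In the hedgehog pathway 0 of 9 genes were at least 1.5-fold higher in metformin members and 4 were lower, beside 14.6% and 5.87% of all genes, with a median log2 ratio of -0.56. Gli1, a target and effector of the pathway, had 57 UMIs in 38 control members (59.0 CPM) and 134 UMIs in 93 metformin members (35.4 CPM), a ratio of 0.601 (0.437 to 0.834). Gli2, the main activating effector, was at 43.5 and 21.1 CPM (0.487, 0.331 to 0.725, or 0.775 after thinning). The co-receptor Boc was at 61.0 and 29.1 CPM (0.476, 0.344 to 0.665). Ptch1 came just short of the 1.5-fold limit at 0.679 (0.551 to 0.840). Smo, the signal transducer, had a ratio of 1.001 (0.725 to 1.40), and Gas1, a co-receptor, 1.07 (0.884 to 1.29). The ligand Shh had 4 UMIs in control members and 5 in metformin members.

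Among FGF and EGF genes, 4 of 11 were lower and 1 was higher in metformin members, beside 5.87% and 14.6% of all genes. Fgfr1 was in 82 control members (185 CPM) and 221 metformin members (96.5 CPM), a ratio of 0.521 (0.434 to 0.626). The feedback inhibitors Spry2 (0.492, 0.402 to 0.604), Dusp6 (0.551, 0.464 to 0.655) and Spry1 (0.586, 0.387 to 0.905) were lower as well, and in other basal-like cells they stood at 0.598, 0.463 and 0.543. In members thinned before the rule was applied, Fgfr1 was at 0.817, Spry2 at 0.933 and Dusp6 at 1.20, and with at most 3000 genes Spry1 was at 1.001. Egfr was at 61.0 and 99.9 CPM, a ratio of 1.64 (1.24 to 2.19). Of 8 Notch genes, Hes1, the main target, was at 148 and 245 CPM (1.66, 1.39 to 1.99) and Notch3 at 4.14 and 17.4 CPM on 4 and 66 UMIs (4.22, 1.57 to 15.9, or 1.41 after thinning), and 0 were lower.

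**Figure D3:**
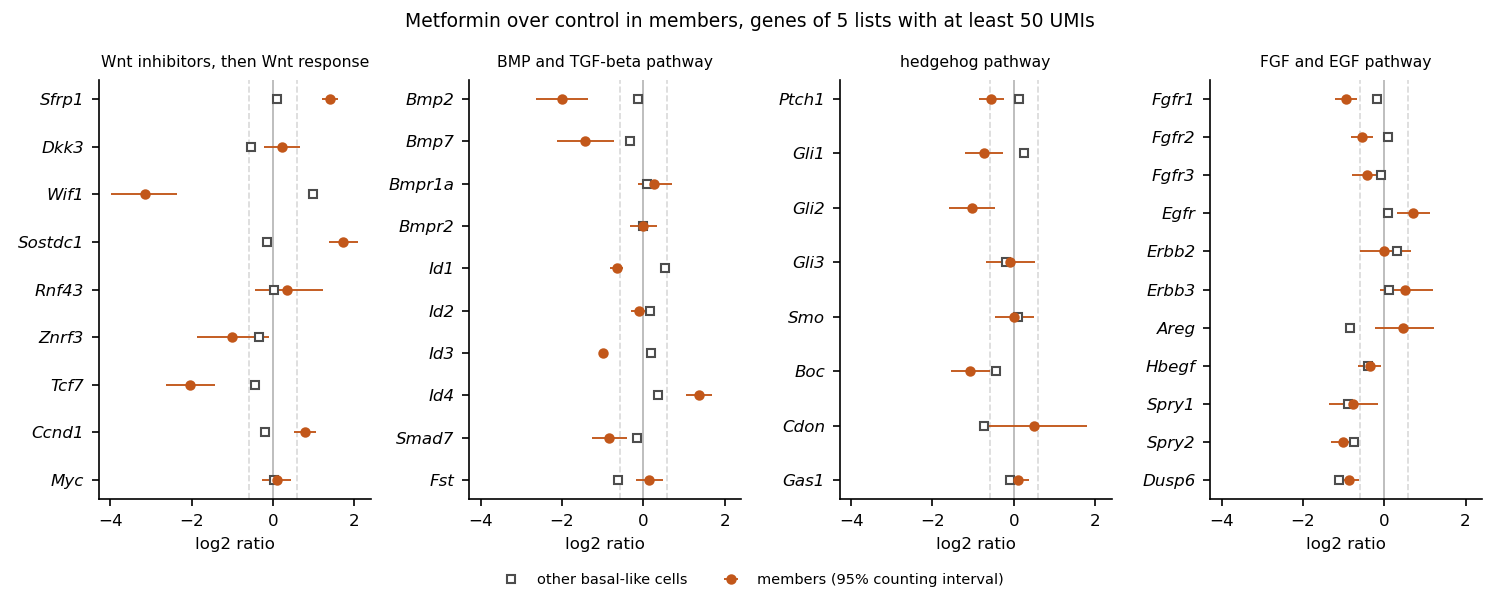
Log2 ratio of CPM, metformin over control, in members (orange, 95% counting intervals) and other basal-like cells (open squares, where they too had 50) for genes of 5 lists with at least 50 UMIs in members; dashed lines mark 1.5-fold. In members, Sostdc1, Id4 and Egfr lie to the right and Wif1, Tcf7, Bmp2, Id3, Gli2, Boc and Fgfr1 to the left. Sfrp1 also lies to the right, but it is a rule gene and is shown as description only. Wif1 lies on opposite sides of 0 in members and other basal-like cells.

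The lists of the companion layer and of the hair matrix lay above the median of all genes. Of all genes, 14.6% were at least 1.5-fold higher in metformin members and 5.87% lower, and the counts that follow stand beside these shares. Of 4 companion layer genes 2 were higher, Gjb2 and Krt6a, and Krt16 was lower (0.587, 0.435 to 0.7998), at a median log2 ratio of 0.94. In metformin members with at least 3 Tagln UMIs, Gjb2 was 9.53 times as high as in the others, while Krt6a had 1 UMI against 516. With at least 3 Pthlh UMIs both were higher (3.42 and 1.41 times). Among other basal-like cells Gjb2 had a ratio of 7.12 and Krt6a a log2 ratio of -1.02. Thinning before the rule left Krt6a at 1.34 in members. The list median is thus not read as more companion layer identity. Of 5 hair matrix genes 3 were higher, on 5 or 6 control UMIs each, Krt28 (2.71, 1.09 to 8.68), Krt71 (2.40, 0.959 to 7.74) and Dlx3 (2.21, 0.951 to 6.31), at a median of 1.15 that turned to -0.19 at a minimum of 20 UMIs. Several further lists lay nearer to the median of all genes. Subunits of AMP-activated protein kinase, which senses low energy and is a known indirect target of metformin, had a median log2 ratio of 0.11, with 0 of 6 higher and 2 lower (Prkab2 at 0.661, Prkag2 at 0.464). Prkaa2 had 0 UMIs in control members and 33 in metformin members. All 16 complex I genes lay within 1.5-fold, and 15 of them were above 1, at a median of 0.27. Glycolysis had a median of 0.11, with Hk2, a hexokinase, at 0.488 (0.368 to 0.651) and Eno1, an enolase, at 1.64 (1.34 to 2.02). Of 19 adhesion and basement membrane genes, 1 was past 1.5-fold, Tnc, the matrix glycoprotein tenascin C, at 115 and 205 CPM (1.78, 1.46 to 2.19). MHC class I had 0 of 9 genes past 1.5-fold. Immediate early genes, which dissociation of tissue can induce, had a median of -0.06 with 1 of 12 past 1.5-fold, Nr4a1 at 0.566, or 0.941 after thinning. Among heat shock genes, 2 of 9 were higher, Hspa1a (2.10) and Hspa1b (1.66), which are near-identical copies whose reads can be split uncertainly and which were at 1.40 and 1.37 in other basal-like cells. The listed S phase genes had a median of 0.06 and the G2/M genes one of 0.32, with 2 of 12 higher, Ccnb1 (1.94) and Ube2c (1.78). That G2/M count is near the 14.6% of all genes.

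Markers of other cells were found in members to different extents. Of the T cell markers, at least 3 UMIs were found in 8 control and 28 metformin members, and of the myeloid markers in 5 and 17. A single cell held 414 of 527 myeloid UMIs in control and 595 of 2699 in metformin. Melanocyte markers reached 3 UMIs in 2 and 3 members, 1 cell holding 141 of 185 UMIs in control and 238 of 336 in metformin. In control members the endothelial and mural markers Pecam1, Cdh5, Kdr and Rgs5 were at 0 UMIs, and in metformin members each was found in 1 to 4 cells. The summed level of the list was 146 CPM in control and 572 CPM in metformin, nearly all from Acta2 and Tagln. Sebaceous markers reached 3 UMIs in 18 control and 147 metformin members and summed to 214 and 666 CPM, mostly from Fabp5, Mgst1 and Scd1, while Scd3 and Awat1 were at 0 in both libraries. Fibroblast markers did so in 22 and 100 members, with at most 7 and 24 UMIs in 1 cell, and summed to 155 and 209 CPM. Markers of suprabasal epidermis reached 3 UMIs in 84 and 399 members and summed to 1066 and 1710 CPM. Within this list the ratio of metformin over control was 3.01 for Sbsn, 1.36 for Dmkn and 0.365 for Krtdap. Krt1 and Krt10, which the rule limits, were at 1.07 and 0.932. Other basal-like cells had more of the list, at 2408 and 2213 CPM. The T cell, myeloid and melanocyte RNA thus lay in few members, whereas fibroblast, sebaceous and suprabasal transcripts were more widely spread. The part these cells have in the ratios was not tested beyond leaving out members with at least 3 UMIs of the immune or pigment markers, which left 107 and 432 members.

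Members were not uniform, and 1 gene at a time was used to show how they split. Those with a Cd34 UMI had more Postn in both libraries, 4.68 times the level of the other members in control (3.97 to 5.53) and 2.27 times in metformin (2.05 to 2.50). Nfatc1 was 3.25 and 1.97 times as high with Cd34, and Krt15 1.87 and 1.66 times. Fst, the activin and BMP antagonist follistatin, was 3.40 and 1.90 times as high. Each of these genes was higher in members with a Cd34 UMI in both libraries. The limit given above applies, that at equal depth the detection of Cd34 in control members was not distinct from that in T cells.

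Lgr5-positive members made up 39.2% of control and 39.0% of metformin members and leaned the other way for Krt15 and Nfatc1. The 2 splits overlapped, since 10 of 33 control and 65 of 152 metformin members with Cd34 also had Lgr5. Cd34 stood at 0.395 times the level of Lgr5-negative members in control (0.213 to 0.705) and 0.906 times in metformin (0.696 to 1.17). Fst stood at 0.777 times (0.511 to 1.18) and 1.27 times (1.04 to 1.54). Krt15 stood at 0.485 times the level of Lgr5-negative members in control and 0.875 times in metformin. Nfatc1 stood at 0.266 and 0.550 times and Krt6a at 0.132 and 0.600 times. Gnmt was higher in them, with 12 of the 13 control UMIs and 439 of the 654 metformin UMIs. Ptch1 stood at 1.67 times (1.14 to 2.48) in control and 1.51 times (1.21 to 1.88) in metformin. Depth differed as well, with median UMIs of 8342 against 4749 in control and of 8010 against 5819.5 in metformin, and its part in these ratios was not tested.

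Members with a UMI of Krt75 or Krt6a, keratins of the companion layer and inner bulge, were 15.8% of control members (9.81% to 23.6%) and 31.6% of metformin members (27.4% to 36.0%). At equal depth they were 5.94% (2.21% to 12.5%) and 21.5% (17.6% to 25.7%), with T cells at 1.47% and 1.16%. Krt6a alone was then in 5.94% of control and 20.3% of metformin members. Other basal-like cells had it in 12.1% in control and 6.38% in metformin. A Krt6a UMI thus did not by itself mark a layer of the follicle. Krt75 itself had 0 UMIs in control members and 24 in metformin members. Krt6a has near-identical paralogs, so its counts are uncertain, and its ratio between the agents was 2.87 (2.12 to 3.97, or 1.34 after thinning) in members but 0.493 in other basal-like cells. In both libraries these members had more Sbsn, a secreted protein of stratified epithelium, at 5.95 (4.60 to 7.71) and 2.35 times (2.18 to 2.53), and more Nfatc1, Hopx and Krt15.

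Members with a UMI of Mki67 or Top2a, genes of dividing cells, were 20.8% of control members (14.0% to 29.2%) and 27.5% of metformin members (23.5% to 31.8%), and 11.9% (6.29% to 19.8%) and 21.7% (17.9% to 25.9%) at equal depth. T cells had 22.1% and 31.8% at that depth, and 8.77% and 15.1% as found. T cells can divide themselves, so their shares give no level from free RNA for these genes. Of the listed G2/M genes, Ube2c had 538 UMIs in metformin members with a UMI and 13 in the others (76 and 3 in control). Ccnb1 had 148 and 4 (16 and 4 in control). In both libraries the members with a UMI had less Krt15 (0.313 and 0.417 times the level of the others), Postn (0.208 and 0.388) and Col17a1, the hemidesmosome collagen (0.488 and 0.335). Ccnd1 was higher in them, at 1.81 (1.28 to 2.57) and 1.60 times (1.41 to 1.83), and so was Ptch1, at 1.70 (1.18 to 2.45) and 1.77 times (1.42 to 2.22). Median UMIs were 11654 and 10169 in these members and 5002 and 5229 in the others.

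**Figure D4:**
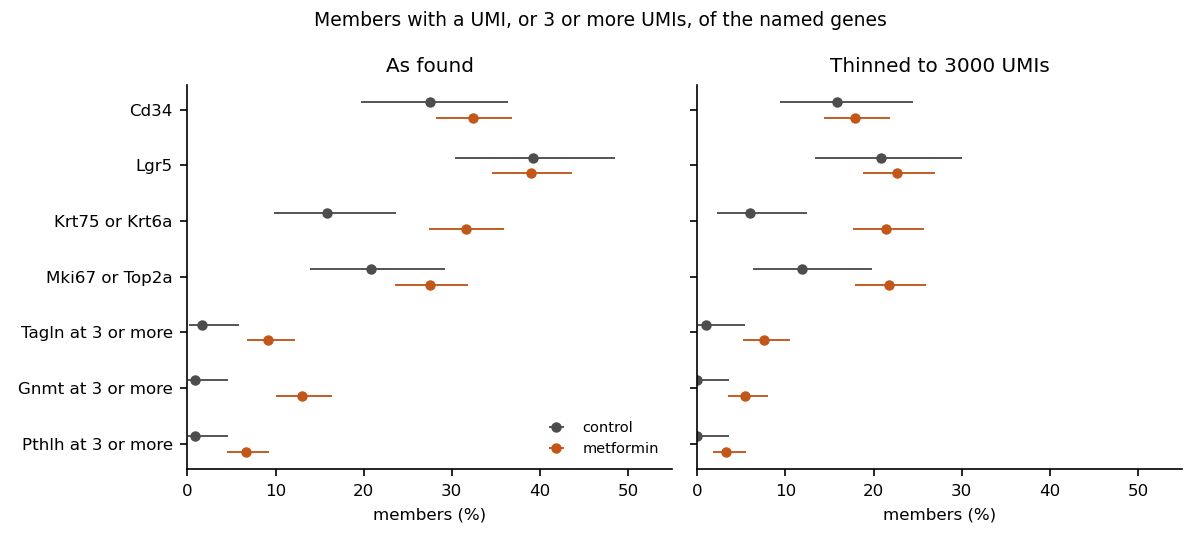
Share of members (horizontal axis, %) with a UMI of Cd34, Lgr5, Krt75 or Krt6a, or Mki67 or Top2a, and with at least 3 UMIs of Tagln, Gnmt or Pthlh, as found (left) and after thinning to 3000 UMIs (right), with exact 95% binomial intervals. Cd34 and Lgr5 shares overlap between control (grey) and metformin (orange), and those of Krt75 or Krt6a, 5.94% and 21.5% after thinning, do not.

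Some of the highest ratios came from small sets of metformin members, which were examined after these values were seen. Tagln, the actin-binding protein transgelin, lies at chromosome 9, 45929619 to 45936058, minus strand, and had 105 UMIs in control members and 1444 in metformin members (3.51, 2.88 to 4.33). Of these, 102 lay in 2 control cells, with a median of 25590.5 UMIs, and 1417 in 43 metformin cells, so that 1.67% of control members (0.202% to 5.89%) and 9.17% of metformin members (6.71% to 12.2%) had at least 3 UMIs. One control cell held 94.3% of the control UMIs, and the ratio of Tagln ran from 1.64 with 4 of 5 rule genes to 75.2 with at most 3000 genes. In those 43 cells Acta2 was 136 times (94.7 to 202), Myl9, a myosin light chain, 12.0 times (9.85 to 14.7) and Gjb2 9.53 times (8.21 to 11.1) as high as in the other metformin members. Nfatc1 (1 UMI against 137), Krt6a (1 against 516) and Postn (16 against 1612) were nearly confined to the others. Krt75 went the other way, with 12 UMIs in the 43 cells against 12 in the other 426 (6.87 times, 2.82 to 16.7), so that it did not follow Krt6a. Of the 43 cells, 29 had Mki67 or Top2a, 26 had Lgr5 and 2 were called doublets, and Ptch1 was 3.09 times as high in them (2.42 to 3.92).

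At least 3 Gnmt UMIs were found in 1 control member and in 61 metformin members (13.0%, 10.1% to 16.4%), and at least 3 Pthlh UMIs in 1 control member and in 31 metformin members (6.61%, 4.53% to 9.25%). In metformin, 39 of the 61 Gnmt cells had Lgr5 and 16 were among the 43 Tagln cells. They had more Abi3bp (4.22 times, 3.15 to 5.61) and Id4 (2.13 times, 1.83 to 2.48) than the other metformin members, and 5 Pthlh UMIs against 471. The Pthlh cells had more Wfdc18 (4.70 times, 3.76 to 5.85) and Gjb2 (3.42 times, 2.88 to 4.05), and 0 Gnmt UMIs. None of the cells belonged to both sets, 18 of the 31 Pthlh cells had Krt75 or Krt6a and 14 had Mki67 or Top2a. Both sets rest on genes chosen after their values were seen, and the overlap was not tested.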

How the data were processed

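Skin of mice was measured by droplet single-cell RNA sequencing. Per the file headers, the deposited matrices hold raw UMI counts of 31053 genes by barcode, which the authors made with Cell Ranger 4.0.0. The submitters' processing notes name the builds mm10 and GRCm38, and the sources used here do not give further settings. Every listed barcode has at least 500 UMIs. The article reporting the series has other groups and served for style and for the thresholds of 1 alternative cell filter only. The label text on extraction names another species, whereas the gene identifiers are those of mouse.

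For each gene, UMIs were summed over members per library, expressed per 1000000 UMIs of that sum (CPM) and compared as metformin over control with an exact conditional binomial interval. Sums give deep cells more weight, and a single cell can hold much of a gene, which the intervals do not cover. For ranking, a count of 0 was set to 3. Genes needed 50 UMIs over both libraries; past 1.5-fold was the call. Lists were described by counts and median log2 ratios. T cells had at least 2 UMIs of Cd3d, Cd3e and Cd3g and under 10 of the basal keratins. Doublets were called with Scrublet (scanpy 1.11.5, expected rate 8%) and removed only as an alternative. Python 3.11.15, numpy 2.4.6, scipy 1.17.1 and pandas 2.3.3 were used, coordinates are from GENCODE M21, and the ratio code was tested on simulated counts.

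Members and lists were chosen with earlier results of these data known. Genes named are the rule genes and Lgr5, up to 8 a list with the most UMIs or the largest ratios, and 10 each with the highest ratio, the lowest ratio and the highest level over other basal-like cells, with at least 100 UMIs. For the highest and lowest ratios, 50 CPM in the higher library and no cell with over 20% of the UMIs were also needed. Pi15, Myl9, Ucp2, Sdc1, the genes named within splits and the sets with 3 or more UMIs were chosen after their values were seen. Some genes that this rule names are not reported here. 314 of 315 listed symbols matched; Krt85 did not. Alternatives were another cell filter (300 to 3000 genes, at most 8% mitochondrial), doublets removed, thinning to 3000 UMIs before the rule, 4 of 5 rule genes, no Msx2 limit, stricter limits on Krt1 and Krt10 (under 5) and on fibroblast genes (under 3), the mean over cells, median-of-ratios scaling, a minimum of 20 UMIs and, added after the data were seen, leaving out members with immune or pigment cell RNA.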

Additional observations from a re-analysis of the deposited data

Results flagged for a closer look

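For 8 of the named genes the ratio of metformin over control was past 1.5-fold in opposite directions in members and in other basal-like cells. With 1 library per agent the difference was not tested for any of them. On the log2 scale Krt6a was at 1.52 in members and -1.02 in other basal-like cells, and Tnc at 0.83 and -0.95. The Wnt inhibitor Wif1 (-3.14 and 0.98) was lower in metformin members and higher in metformin basal-like cells. Gys1, glycogen synthase of muscle and skin, was at 2.28 and -0.67 on 3 and 57 UMIs in members. The MHC class II genes H2-Aa (0.85 and -0.79) and H2-Ab1 (0.60 and -0.73) had 81.1% and 75.9% of their control member UMIs in 1 cell, and H2-Ab1 turned to -0.078 with doublets removed and to -0.11 without members holding immune or pigment RNA. The pigment genes Dct (-0.94 and 0.88) and Pmel (-1.995 and 1.06) had 75.7% and 81.8% of theirs in 1 cell, and Dct turned to 2.30 without members holding immune or pigment RNA.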

How the results depend on the processing

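No paired analysis was possible because each agent has 1 library. Of 2664 gene ratios under alternatives, 2251 lay within the counting interval of the value given and 402 lay outside it. Another 11 changed sign, each for a gene past 1.5-fold. Ratios nearer to 1 are not counted among these 11, although several changed sign too. Lgr5, for example, kept its direction under 6 of 10 alternatives and Smo under 4 of 10. Thinning before the rule, which left 53 control and 319 metformin members, changed most. Shares of kept and of keratin-rich barcodes were then 0.720% and 1.65% in control and 3.38% and 6.51% in metformin. With 4 of 5 rule genes they were 0.433%, 1.35%, 3.04% and 6.01%, and with no Msx2 limit the metformin shares were 4.63% and 9.16%. Genes past 1.5-fold numbered 652 higher and 213 lower after thinning and 1822 and 870 at 20 UMIs, and 996 genes were higher than in other basal-like cells after thinning. Thinned list medians (log2) were -0.35 for bulge, 1.01 for upper follicle, 1.29 for G2/M, -0.10 for transcription factors, 0.19 for immediate early and 0.17 for heat shock genes. With 4 of 5 genes they were -0.10 for G2/M, 1.62 for Wnt inhibitors (a list that holds the rule gene Sfrp1) and -0.12 for BMP and TGF-beta. With no Msx2 limit they were 0.50 for Wnt inhibitors, -0.22 for hedgehog and -0.18 for immediate early genes. The 300 to 3000 gene filter gave 1.27 for Wnt inhibitors and 0.077 for immediate early genes, and a minimum of 20 UMIs gave -1.01 for the Wnt response and -0.19 for hair matrix genes, the latter turning from 1.15. Of single genes past 1.5-fold, thinning turned Acta2 (-0.061), Dlx3 (-0.59), Smad7 (0.32), Dusp6 (0.27), Ovol1 (0.22) and Myl9 (-0.33). The gene filter turned Bambi (-0.055) and Spry1 (0.0011), and removing doublets turned H2-Ab1 (-0.078). Leaving out members with immune or pigment RNA turned H2-Ab1 (-0.11) and Dct (2.30). Thinned members had Cd34 in 15.8% and 17.9%, Lgr5 in 20.8% and 22.6%, Krt75 or Krt6a in 5.94% and 21.5%, Mki67 or Top2a in 11.9% and 21.7%, at least 3 Gnmt UMIs in 0% and 5.42% and at least 3 Pthlh UMIs in 0% and 3.30% (control, then metformin). The causes of these changes were not tested. The 120 control members and 966620 UMIs limit the precision of every ratio.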

Other observations

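Genes outside the lists also differed between the members of the 2 libraries and were chosen after their values were seen. Pi15, a secreted peptidase inhibitor-like protein, was in 24 of 120 control members (20%) and in 302 of 469 metformin members (64.4%), a ratio of 3.19 (2.58 to 3.99), beside 1.60 in other basal-like cells. At equal depth the shares were 17.8% (10.9% to 26.7%) and 47.2% (42.3% to 52.0%). Ucp2, a mitochondrial carrier protein, was at 400.4 and 1146 CPM, a ratio of 2.86 (2.58 to 3.18), and Sdc1, the cell surface proteoglycan syndecan-1, at 183 and 500.05 CPM, a ratio of 2.73 (2.34 to 3.20). Both were near 1 in other basal-like cells, at 1.16 and 1.01. Each of these 3 genes was thus higher in metformin members, and 1 control cell held 19.4% of the control UMIs of Pi15.

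Markers of the upper follicle split within their list. Lgr6, a stem cell marker of the isthmus, was in 40 control members (81.7 CPM) and 61 metformin members (22.7 CPM), a ratio of 0.278 (0.203 to 0.382), and its ratio was between 0.197 and 0.293 under the 10 alternatives. Lrig1 and Plet1 had ratios of 1.10 (0.781 to 1.59) and 0.943 (0.723 to 1.24). Defb6, a beta-defensin, had a ratio of 10.6 (6.03 to 20.7), but 1 metformin cell held 32.1% of its metformin UMIs.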
